A study of Mus musculus with 172 samples.

Results

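Expression of 9 genes of systemic iron control was followed in cerebral cortex and liver of the BXD mouse panel: the hepcidin genes Hamp and Hamp2, the iron importer Tfrc, the iron exporter Slc40a1, and the hepcidin regulators Hfe, Hfe2, Bmp6, Tmprss6 and Id1. The members were taken by gene symbol from 4 tables of log2 CPM (reads of a gene scaled to the total of its library), which list 16308 genes in all, 14896 in cortex and 14107 in liver. All 9 members were listed in liver, and 6 of them (Tfrc, Slc40a1, Hfe, Hfe2, Bmp6 and Id1) also in cortex. Hamp, Hamp2 and Tmprss6 were not listed in the cortex tables, from which genes with few reads had been removed, so no cortical level can be given for them.

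The BXD/RwwJ lines are recombinant inbred mice, each an inbred mosaic of the genomes of C57BL/6J and DBA/2J. The study's 39 pools were 33 BXD/RwwJ lines, 2 pools of C57BL/6J, 2 of DBA/2J and 1 of each reciprocal F1 hybrid (called BD and DB in the labels), all of them male. Each pool was RNA of about 3 mice of a line, fewer for BXD79, BXD85 and BXD101, so a pool is 1 sample and the mice within it are not replicates. Every line gave a pool from undisturbed control mice (Ctr) and another from mice sleep deprived (SD) for the first 6 h of the light phase and killed directly afterwards, at Zeitgeber time 6, the same hour as the controls. The 2 parental pools of a strain were collected at the start and at the end of a long collection period. That gave 78 libraries per tissue. A further 4 BXD/TyJ pools per tissue and treatment (BXD05, BXD29, BXD29t and BXD32) were left out of the main comparisons. Since RNA was pooled from whole tissue pieces, fewer cells of a type and less RNA per cell cannot be told apart.

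Hepcidin is a small peptide hormone that hepatocytes release when body iron is ample or when inflammation is present. It binds the iron exporter ferroportin, the product of Slc40a1, on gut cells, macrophages and hepatocytes and causes its degradation, which lowers iron in blood. Its gene is switched on by bone morphogenetic proteins, of which Bmp6 from liver endothelial cells is the main one, through a receptor complex that contains hemojuvelin (Hfe2) and is tuned by Hfe, and it is held down by the membrane protease matriptase-2 (Tmprss6), which cuts hemojuvelin. Id1 is a direct target of the same SMAD signal and is read as its gauge. Tfrc, the transferrin receptor, imports iron, and its transcript is stabilised by iron regulatory proteins when cellular iron is low.

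Mice carry 2 hepcidin genes side by side. In the NCBIM37 (mm9) annotation, the build named for the files, Hamp lay at chr7:31727390-31729036 and Hamp2 at chr7:31707391-31709200, both on the minus strand with 3 exons, and their starts were 19.8 kb apart. None of the 293 stretches of 100 bases in the Hamp transcript or the 338 in Hamp2 occurred in a protein-coding transcript of another gene. Noncoding transcripts and the rest of the genome were not searched. Among coding genes, reads without mismatches could therefore be assigned to either gene by sequence in the reference strain. Sites at which DBA/2J differs from the reference were not analysed here.

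The upstream sequences of both genes are shown for the motifs of the BMP and interleukin-6 arms. They are the 250 bases before the RefSeq start in the GRCm38.p6 build, chr7:30944030-30944279 for Hamp and chr7:30924182-30924431 for Hamp2, minus strand, and 227 of 247 aligned bases were identical (91.9%). Capitals mark GGCGCC, a SMAD-binding core of BMP-response elements, and TTCNNNGAA, the STAT motif.
Hamp: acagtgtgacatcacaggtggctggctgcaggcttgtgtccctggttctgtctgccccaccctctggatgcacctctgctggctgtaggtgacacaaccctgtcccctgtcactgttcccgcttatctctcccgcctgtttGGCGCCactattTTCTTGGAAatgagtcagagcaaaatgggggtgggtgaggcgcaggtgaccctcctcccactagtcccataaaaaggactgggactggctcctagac
Hamp2: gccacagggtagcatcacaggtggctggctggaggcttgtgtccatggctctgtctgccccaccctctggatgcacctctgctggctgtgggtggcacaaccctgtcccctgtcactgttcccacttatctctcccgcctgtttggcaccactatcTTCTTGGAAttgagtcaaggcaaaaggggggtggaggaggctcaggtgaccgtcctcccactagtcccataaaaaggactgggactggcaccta
Hamp held GGCGCC at positions -109 to -104 from its start and TTCNNNGAA at -97 to -89. Hamp2 held only the second motif, at -94 to -86. Both motifs read the same on both strands and do not overlap here. Over the 250 bases before each of 32851 RefSeq starts, GGCGCC occurred in 9.59% and TTCNNNGAA in 7.02%, so a match is a description only. Among the other promoters held for the members, Tfrc had GGCGCC at -89 to -84 in the sequence chr16:32608646-32608895. Its other promoter, chr16:32608872-32609121, had no match. Bmp6 had the E-box CACGTG at -127 to -122, a motif found in 6.02% of the upstream sequences.

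Tfrc and Slc40a1 are also controlled after transcription, through iron-responsive elements, short hairpins in untranslated regions that iron regulatory proteins bind. A search of mm9 transcripts for a C, 5 bases, the loop CAGTG followed by a base other than G, and 5 bases that pair with the first 5 found 4 sites in the 3′ untranslated region of Tfrc, where binding protects the transcript from decay. Capitals mark the loop.
Tfrc site 1: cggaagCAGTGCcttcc
Tfrc site 2: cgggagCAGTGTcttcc
Tfrc site 3: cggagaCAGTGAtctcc
Tfrc site 4: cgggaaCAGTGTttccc
Of 19705 genes with a 3′ untranslated region, 83 had a match (0.421%) and 1, Tfrc, had more than 1. Slc40a1 had 1 site in its 5′ untranslated region, where binding blocks translation, as had the ferritin genes Fth1 and Ftl1, and 14 of 18931 genes with a 5′ untranslated region had one (0.0740%).
Slc40a1: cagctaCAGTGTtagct
Fth1: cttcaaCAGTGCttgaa
The carriers differ in the end of the transcript that holds the element. Binding at Tfrc changes the amount of transcript, which RNA-seq measures, and binding at Slc40a1 changes translation, which it does not.

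Library totals, computed from reads recovered from the tables, were 18995492 to 28998853 in cortex and 4681101 to 8269401 in liver. A liver library was thus shallower than any cortex library, and a single read in it stood at a higher level. The liver held markers of hepatocytes (8 of 8 listed, summed level 2755 to 4572 CPM in Ctr and 2808 to 4282 in SD), of Kupffer cells (8 of 8, 339 to 769 and 326 to 927 CPM) and of sinusoidal endothelium (8 of 8, 352 to 796 and 421 to 912 CPM). The cortex held its neuronal markers (6 of 6, 8002 to 9095 and 7754 to 8689 CPM), and of the 8 hepatocyte markers 6, Alb among them, were not listed there. Stellate cell markers (6 of 6) summed to 450 to 748 CPM in Ctr liver and 452 to 715 in SD. In cortex the markers of brain endothelium (7 of 7) summed to 264 to 416 CPM in Ctr and 253 to 341 in SD, those of microglia (6 of 6) to 280 to 441 and 272 to 420, those of astrocytes (6 of 6) to 4271 to 6848 and 4910 to 7180, and those of oligodendrocytes (6 of 6) to 2437 to 4174 and 2303 to 4198. Choroid plexus markers (5 of 6) varied widely between dissections, from 8.71 to 241 CPM in Ctr cortex and from 7.77 to 414 in SD. Of 11 erythroid markers 2 were listed in liver and 1 in cortex, and no haemoglobin gene was listed in either tissue.

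Levels are compared between genes per kilobase of annotated exon. In Ctr liver the median level over 39 pools was highest for the hepcidin genes and the protease gene Tmprss6. It was 156.3 CPM per kb for Hamp2, 149 for Tmprss6, 123 for Hamp, 74.7 for Slc40a1, 55.8 for Hfe2, 28.2 for Hfe, 16.6 for Tfrc, 12.8 for Id1 and 3.16 for Bmp6. In Ctr cortex the order was Tfrc at 28.9 CPM per kb, Id1 at 6.37, Slc40a1 at 4.41, Bmp6 at 1.94, Hfe2 at 1.11 and Hfe at 0.806. Tfrc was the only member whose median per kilobase was higher in cortex than in liver, and normalisation was separate for each table, so levels set across tissues are side by side and were not tested.

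**Figure D1:**
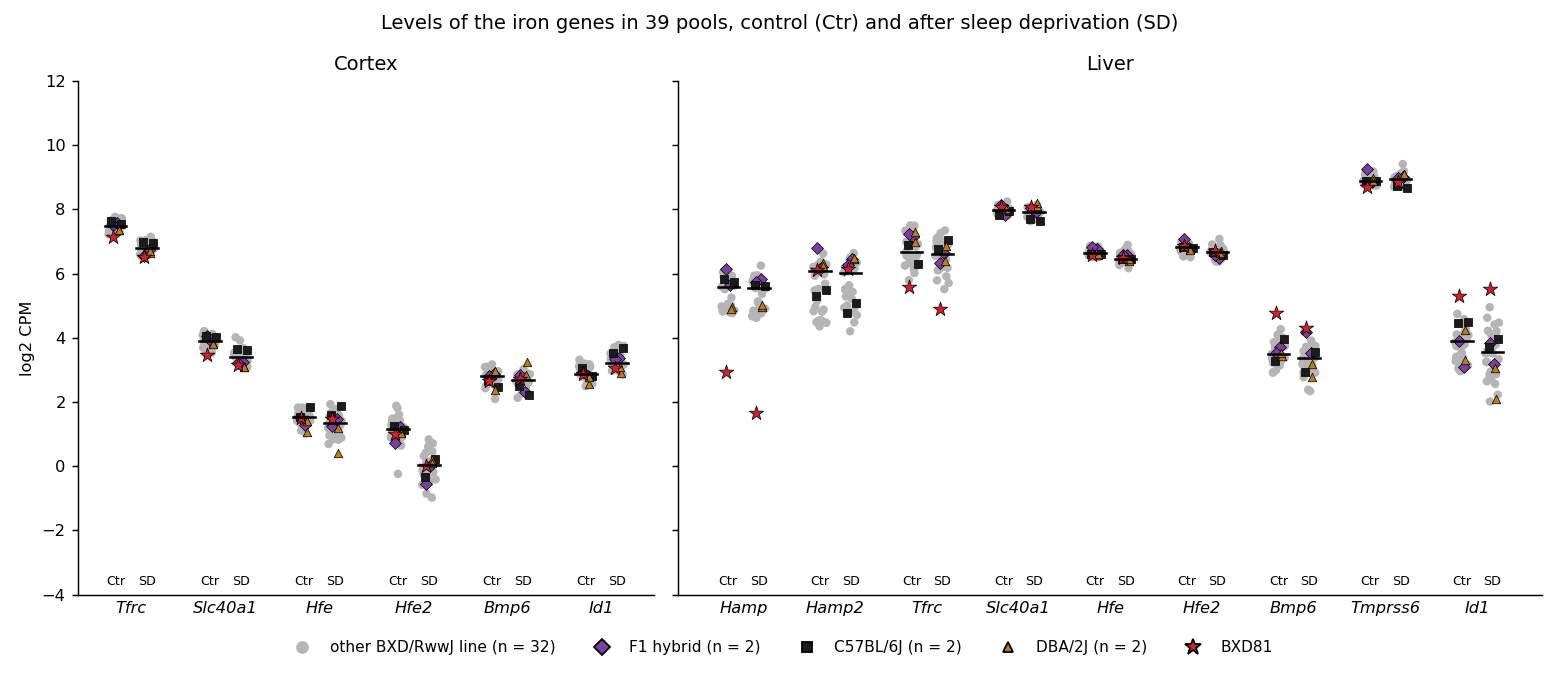
Level of each gene in log2 CPM (y axis) in each of 39 pools, Ctr and SD, for cortex (left) and liver (right). Bars are medians, red stars mark BXD81, squares C57BL/6J, triangles DBA/2J and diamonds the F1 hybrids. In liver BXD81 lies below all other pools for Hamp (2.95 in Ctr and 1.66 in SD) and Tfrc, and above all of them for Bmp6 and Id1.

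Read numbers in liver levelled off at high read density, which touches both hepcidin genes and Tmprss6. The highest level of any gene in Ctr liver was 2520 CPM, and the densest gene was Alb, the albumin gene, at 1.78 reads per exonic base. Among 13218 liver genes with a length, Hamp2 ranked 67 by read density (1.12 reads per exonic base), Tmprss6 109 (0.998) and Hamp 216 (0.842). Over the 78 liver libraries the slope of log reads on log library total had a median of 1.14 for genes with a median of at least 100 reads and of 0.184 for the 100 densest genes. Without BXD81, a line described below, it was -0.016 for Hamp, 0.00093 for Hamp2 and 0.337 for Tmprss6. The other members had slopes of 0.664 (Slc40a1), 0.791 (Hfe), 0.816 (Hfe2), 0.859 (Id1), 1.28 (Tfrc) and 1.46 (Bmp6). In cortex the 100 densest genes had a median slope of 0.979. Read numbers of the hepcidin genes hardly rose with depth, so that their log2 CPM moved with the library total, and the cause was not tested. Folds and SD changes given here for Hamp, Hamp2 and Tmprss6 may therefore be smaller than those of the transcripts, and by how much was not tested.

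Sleep deprivation in cortex was compared within lines, SD against Ctr, in 39 pairs. All 6 members listed there passed the test (limma, adjusted p under 0.05), 5 with a fall and Id1 with a rise, where 76.3% of all genes passed, 36.6% upward and 39.6% downward. The count was thus near the background. Their median change was -0.36 on the log2 scale and their median absolute change 0.44, beside -0.0097 and 0.13 over all cortex genes. Cell type markers moved as well: 4 of 6 neuronal markers fell, 5 of 6 astrocyte markers rose, 3 brain endothelial markers rose and 4 fell of 7, 2 microglial markers rose and 3 fell of 6, and 1 oligodendrocyte marker rose and 3 fell of 6. Their part in the changes of the members was not tested.

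Tfrc, the iron importer (chr16:32609006-32632880, plus strand), had a lowest, median and highest level of 7.15, 7.48 and 7.77 log2 CPM in Ctr cortex and of 6.53, 6.80 and 7.15 after SD. The highest SD pool was just below the lowest Ctr pool, so the 39 SD and 39 Ctr levels did not overlap, and every line fell. The mean change was -0.67 ± 0.17 (SD, n = 39 pairs) on the log2 scale, that is, Tfrc fell by 37.1% (95% interval of the log2 change -0.72 to -0.62, adjusted p = 1.63e-27), and 3.71% of cortex genes changed as much or more. Slc40a1, the exporter (chr1:45964915-45982439, minus strand), fell from 3.48, 3.90 and 4.21 log2 CPM (lowest, median, highest) to 3.08, 3.42 and 4.02. It was lower after SD in all 39 lines, although the pools overlapped, and the mean change was -0.51 ± 0.21 (adjusted p = 3.76e-19). Import and export genes both fell.

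Hfe2, hemojuvelin (chr3:96329108-96333139, plus strand), changed most but at a low level. It had -0.24, 1.17 and 1.88 log2 CPM in Ctr and -0.98, 0.030 and 0.84 after SD, with medians of 51 and 22 reads per library. It was lower in 38 lines, all but BXD56, and the mean change of -1.13 ± 0.41 (adjusted p = 1.34e-20) was matched or passed by 0.752% of genes. Id1 (chr2:152561987-152563146, plus strand) rose from 2.50, 2.89 and 3.32 to 2.86, 3.22 and 3.78 log2 CPM, in 38 of 39 lines, by 0.37 ± 0.27 (adjusted p = 8.52e-11), and BXD83 was the exception at -0.029. Hfe, an MHC class I-like protein that binds the transferrin receptor (chr13:23793903-23802723, minus strand), had 1.02, 1.53 and 1.86 log2 CPM in Ctr and 0.42, 1.34 and 1.94 after SD, and was lower in 29 of 39 lines, with a mean change of -0.22 ± 0.29 (adjusted p = 3.87e-05). Bmp6 (chr13:38436995-38592183, plus strand) had 2.10, 2.80 and 3.17 in Ctr and 2.13, 2.67 and 3.24 after SD, and was lower in 25 lines, with a mean change of -0.096 ± 0.27 (adjusted p = 0.0347). That call was lost when any 1 of 6 pools was left out, namely BXD44, BXD70, BXD75, BXD96, BXD97 or the F1 hybrid BD, with adjusted p = 0.0571 to 0.0668, and also without the line as a block (adjusted p = 0.0849), with all 43 pools (0.0706) and after quantile normalisation (0.126).

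**Figure D2:**
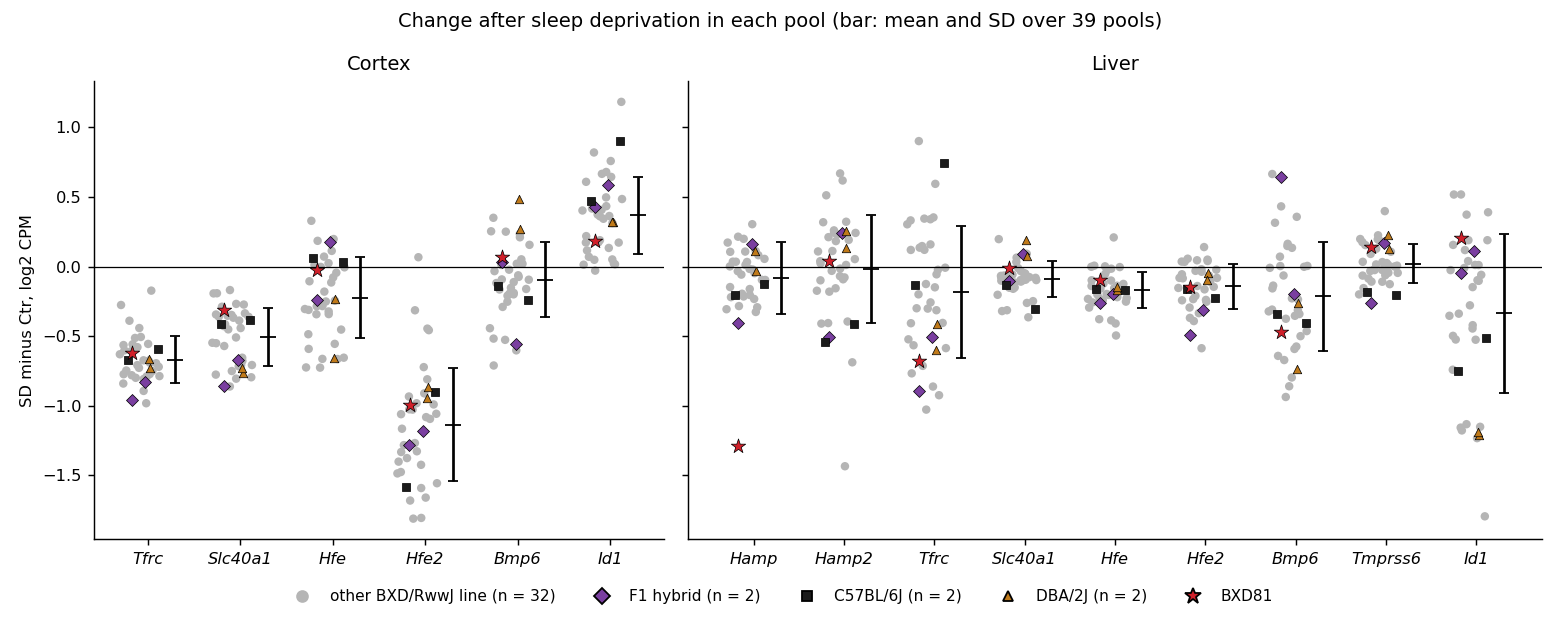
SD minus Ctr change in log2 CPM (y axis) of each gene in each of 39 pools, cortex on the left and liver on the right. The bar beside each column of points is the mean with the SD over pools. Tfrc and Slc40a1 lie below 0 in every cortex pool, and in liver the lowest Hamp point is BXD81 at -1.29.

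In liver the same comparison moved the members less. Of 9 members, 6 passed, all downward, where 53.9% of all liver genes passed and 27.9% passed downward. Hamp, Hamp2 and Tmprss6 did not pass. The median change of the members was -0.14 on the log2 scale and their median absolute change 0.14, beside -0.0015 and 0.12 over all genes.

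Hamp in liver had 2.95, 5.59 and 6.14 log2 CPM in Ctr and 1.66, 5.54 and 6.25 after SD. The levels overlapped across almost their whole range, 23 lines were lower and 16 higher after SD, and the mean change was -0.083 ± 0.26 (95% interval -0.16 to -0.0038, adjusted p = 0.0798). BXD81 alone gave -1.29, with the next largest fall at -0.40 in the F1 hybrid DB. Without BXD81 the change was -0.051 (adjusted p = 0.129), without BXD70 it was -0.093 (adjusted p = 0.0437), and with the library total as a covariate, added after seeing the data, it was -0.098 (adjusted p = 0.0149). Hamp2 had 4.36, 6.09 and 6.79 log2 CPM in Ctr and 4.204, 6.04 and 6.64 after SD, was higher in 22 lines and lower in 17, and had a mean change of -0.017 ± 0.39 (95% interval -0.13 to 0.097, adjusted p = 0.827). Its largest single change was a fall of 1.43 in BXD95, and without that line the mean was 0.020. Tmprss6 (chr15:78270098-78299064, minus strand) had 8.71, 8.90 and 9.25 in Ctr and 8.67, 8.94 and 9.42 after SD, with a mean change of 0.022 ± 0.14 (95% interval -0.022 to 0.067, adjusted p = 0.421). These 3 genes are the ones at high read density.

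The SMAD target and the ligand fell in liver. Id1 had 2.96, 3.89 and 5.30 log2 CPM in Ctr and 2.02, 3.57 and 5.51 after SD, and its mean change was -0.34 ± 0.57 (adjusted p = 0.00107). The spread was wide, since 13 lines rose and 26 fell, with extremes of -1.79 in BXD84 and 0.52 in BXD73. Bmp6 had 2.91, 3.50 and 4.78 in Ctr and 2.34, 3.36 and 4.32 after SD and fell by 0.21 ± 0.39 (28 of 39 lines, adjusted p = 0.00322). Of 8 sinusoidal endothelial markers, 5 rose and 1 fell, and their part in the change of Bmp6 was not tested. Both genes held few reads, with medians of 95 and 73 in Ctr liver. Tfrc had 5.58, 6.68 and 7.50 in Ctr and 4.90, 6.62 and 7.35 after SD, fell in 26 lines and rose in 13, and changed by -0.18 ± 0.47 (adjusted p = 0.0262). The calls of Id1 and Tfrc were lost without the line as a block (adjusted p = 0.0568 and 0.161), and that of Tfrc also over the 33 BXD/RwwJ lines alone (adjusted p = 0.0676). Hfe, Hfe2 and Slc40a1 changed little but evenly. Hfe had 6.52, 6.66 and 6.86 in Ctr and 6.17, 6.46 and 6.90 after SD and fell in 36 of 39 lines, by 0.17 ± 0.13 (adjusted p = 7.24e-09). Hfe2 had 6.51, 6.82 and 7.08 in Ctr and 6.37, 6.66 and 7.08 after SD and fell in 32, by 0.14 ± 0.16 (adjusted p = 4.33e-06). Slc40a1 had 7.81, 7.98 and 8.25 in Ctr and 7.63, 7.91 and 8.21 after SD and fell in 32, by 0.088 ± 0.13 (adjusted p = 0.000312).

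Whether a member responded differently in the 2 tissues was tested on the difference of its paired changes (limma). Of the 6 members listed in both tissues, 4 passed, where 57.6% of 12695 genes did. Hfe2 fell less in liver (difference 0.99, SE 0.0655, adjusted p = 5.90e-17), as did Tfrc (0.49, SE 0.0745, adjusted p = 3.68e-07) and Slc40a1 (0.42, SE 0.0419, adjusted p = 1.58e-11). Id1 went up in cortex and down in liver (difference -0.70, SE 0.0979, adjusted p = 4.85e-08). Hfe (0.056, adjusted p = 0.379) and Bmp6 (-0.12, adjusted p = 0.210) did not pass.

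The parental strains were compared in 4 libraries each per tissue, 2 pools in Ctr and 2 in SD, with treatment as a covariate. In liver 4 of 9 members passed, Hamp2 and Slc40a1 higher and Hamp and Id1 lower in DBA/2J, where 17.9% of all genes passed (8.42% higher and 9.47% lower in DBA/2J). The 4 C57BL/6J and 4 DBA/2J libraries did not overlap for Hamp, Hamp2 and Slc40a1, 3 of 9 members, and for 16.5% of all liver genes. The 2 pools of a strain were collected at different times, and p-values measure the spread between pools.

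Hamp measured 5.75 and 5.84 log2 CPM in Ctr and 5.63 and 5.64 in SD in the C57BL/6J pools, against 4.98 and 4.90 in Ctr and 4.95 and 5.02 in SD in DBA/2J. Every C57BL/6J library was above every DBA/2J library, by 1.68-fold on average (log2 difference of DBA/2J minus C57BL/6J -0.75, SE 0.0820, adjusted p = 1.80e-05). Hamp2 had the opposite order. It measured 5.48 and 5.31 in Ctr and 5.07 and 4.77 in SD in C57BL/6J, against 6.33 and 6.22 in Ctr and 6.46 and 6.48 in SD in DBA/2J, and was 2.32-fold higher in DBA/2J (1.21, SE 0.123, adjusted p = 8.69e-06). The 2 differences kept their direction and their call under all 12 alternatives, with ranges of -0.86 to -0.65 and 0.88 to 1.55. Reads of the parents were 360 to 375 for Hamp in C57BL/6J and 172 to 210 in DBA/2J, and 197 to 303 and 490 to 526 for Hamp2. Because reads of these genes levelled off, both folds may be too small.

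The exporter Slc40a1 was higher in DBA/2J liver by 0.32 (SE 0.0729, adjusted p = 0.00670), with 7.94, 7.83, 7.63 and 7.69 in C57BL/6J (2 Ctr, then 2 SD) against 8.05, 8.02, 8.12 and 8.21. Id1 was lower in DBA/2J, by 0.99 (SE 0.246, adjusted p = 0.0124), with 4.49, 4.46, 3.98 and 3.71 in C57BL/6J against 3.30, 4.25, 2.09 and 3.06, so that the groups overlapped. Both calls were lost in Ctr libraries alone (adjusted p = 0.175 for Slc40a1 and 0.146 for Id1), without a variance trend (0.0628 and 0.0829) and with the library total as a covariate, added after seeing the data (0.0758 and 0.277). The Slc40a1 call was also lost without C57BL/6J pool 2 (0.0636), and the Id1 call without C57BL/6J pool 1 (0.0719) or DBA/2J pool 1, where the difference was -0.51 (adjusted p = 0.114). Tfrc, Hfe, Hfe2, Bmp6 and Tmprss6 did not pass, although Tmprss6 passed as higher in DBA/2J in SD libraries alone (0.40, adjusted p = 0.00165). The SD libraries of DBA/2J were shallower (5785013 and 5690812 reads, against 7491781 and 7250062 in C57BL/6J). Tmprss6 reads rose little with depth, and the part of depth in this call was not tested.

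In cortex 4 of 6 members passed, all lower in DBA/2J, where 25.5% of genes passed (11.6% higher and 13.9% lower in DBA/2J). The groups did not overlap for 1 member, Hfe, and for 17.3% of all genes. Tfrc measured 7.54 and 7.65 in Ctr and 6.94 and 6.98 in SD in C57BL/6J against 7.36 and 7.37 in Ctr and 6.63 and 6.71 in SD in DBA/2J, so that within each treatment every C57BL/6J pool was higher (difference -0.26, SE 0.0395, adjusted p = 0.000164). Slc40a1 differed by -0.39 (SE 0.0784, adjusted p = 0.00186), Id1 by -0.44 (SE 0.104, adjusted p = 0.00607) and Hfe by -0.69 (SE 0.188, adjusted p = 0.0136). In Ctr libraries alone, with 2 pools a strain, the calls of Slc40a1 (-0.21), Id1 (-0.26) and Hfe (-0.44) were lost, with adjusted p = 0.141, 0.256 and 0.178. Leaving out DBA/2J pool 1 ended the Id1 call (adjusted p = 0.0893), and leaving out C57BL/6J pool 1 or DBA/2J pool 2 ended that of Hfe (0.115 and 0.140, with a difference of -0.41 in the second case), as did a fit without a variance trend (0.0572). Bmp6 passed as higher in DBA/2J without DBA/2J pool 2, by 0.64 (adjusted p = 0.00686), and in SD libraries alone, by 0.68 (adjusted p = 0.0187). Oligodendrocyte markers moved with strain in cortex, 6 of 6 lower in DBA/2J with a median of -0.41, and their part in these results was not tested.

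The response to SD differed between the parents for 3 of 9 liver members, where 7.19% of genes passed. Hamp2 changed by -0.41 and -0.54 in the C57BL/6J pools and by 0.13 and 0.26 in DBA/2J (difference 0.67, SE 0.155, adjusted p = 0.0291). Slc40a1 changed by -0.30 and -0.13 against 0.075 and 0.19 (0.35, SE 0.0814, adjusted p = 0.0294), and Tmprss6 by -0.21 and -0.18 against 0.12 and 0.22 (0.37, SE 0.0695, adjusted p = 0.0191). All 6 changes of C57BL/6J were falls and all 6 of DBA/2J were rises. Library totals moved with the same contrast: they were 6732104 and 6584349 in Ctr and 7491781 and 7250062 in SD for C57BL/6J, and 6547019 and 6848193 in Ctr and 5785013 and 5690812 in SD for DBA/2J. With the log2 total as a covariate, 0 liver genes passed (limma, 893 at an unadjusted p under 0.05, beside 3344 without it), none of the 3 members passed, and Tmprss6 turned to -0.062. The strain difference in response and the totals therefore cannot be told apart. Median-centring the libraries moved the split of all liver calls, from 767 of 1014 toward DBA/2J to 1404 of 1612. In cortex 0 of 6 members passed (limma), 1 of them (Slc40a1, p = 0.0223) had an unadjusted p under 0.05, and 0.00671% of genes passed.

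For each of the 2 hepcidins, the reciprocal F1 pools lay near the parent with the higher level. In liver the hybrids BD and DB had Hamp at 5.66 and 6.13 in Ctr and 5.82 and 5.73 in SD, in or above the range of C57BL/6J. Their Hamp2 was 6.202 and 6.79 in Ctr and 6.45 and 6.28 in SD, with all 4 values above every C57BL/6J value. The highest values of both genes were those of DB in Ctr, the shallowest Ctr liver library (5034166 reads), and its total raises a CPM whose reads do not rise with depth. The F1 pools held 323 to 349 reads of Hamp and 501 to 511 of Hamp2. Reads of both genes levelled off, and the part of that in the likeness to a parent was not tested. With 1 pool of each cross, these values are a description.

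Differences among the 33 BXD/RwwJ lines were tested against the spread between a line's Ctr and SD pools after the mean treatment effect was removed. In liver all 9 members passed, where 59.0% of genes did, and in cortex 4 of 6 (not Bmp6 and Id1), where 50.4% did. Of the members, the 2 hepcidin genes had the largest ratios. Their reads hardly moved with depth, so the spread within a line that enters the ratio may be too small, and its part in the ranking was not tested. Hamp had F = 29.0 (adjusted p = 2.06e-16), rank 115 of 14107 genes, with an intraclass correlation of 0.929, and Hamp2 had F = 14.3 (adjusted p = 1.37e-11), rank 335, with 0.852. Id1 followed with F = 5.11, then Tfrc (4.25), Bmp6 (3.72), Tmprss6 (3.23), Slc40a1 (2.88), Hfe (2.33) and Hfe2 (2.06), beside a median F of 2.14 over all liver genes. With the library total as a covariate, added after seeing the data, Hfe (adjusted p = 0.0563) and Hfe2 (0.106) lost their calls. In cortex the ratios were 3.12 for Slc40a1, 2.63 for Tfrc, 2.49 for Hfe2, 2.10 for Hfe, 1.86 for Bmp6 and 1.68 for Id1. Without BXD79, BXD85 and BXD101 the Hfe call was lost there (adjusted p = 0.0546).

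The lines were split into 2 sets by hepcidin. Line means of Hamp2 ran from 4.28 (BXD87) to 6.63 (BXD50) log2 CPM, a 5.10-fold range, and the line next above BXD87 was BXD79 at 4.59. The widest gap between neighbours, 0.34, split 17 lines from 16. The 16 lines above the gap were exactly the 16 lines with the lowest Hamp means. In them Hamp2 measured 5.97, 6.21 and 6.63 (lowest, median, highest) in Ctr and 6.04, 6.22 and 6.64 in SD, and Hamp, without BXD81, 4.77, 4.91 and 5.26 in Ctr and 4.62, 4.85 and 5.37 in SD. In the 17 other lines Hamp measured 5.52, 5.82 and 6.14 in Ctr and 5.53, 5.76 and 6.25 in SD, and Hamp2 4.36, 4.88 and 6.24 in Ctr and 4.204, 5.00 and 5.64 in SD. The first set held the levels of DBA/2J in both genes and the second those of C57BL/6J in Hamp, while Hamp2 spread in it over a wider range, from below to above C57BL/6J. The highest Hamp2 value of the second set was that of BXD95 in Ctr, 6.24 beside 5.85 for Hamp, and its SD pool had 4.81. In Hamp the gap between the 2 sets was 0.22, and a wider one, 0.24, lay between other neighbours above BXD81. The sets were made from the levels themselves, so the contrast between them is a description, and genotypes at the locus were not analysed here.

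**Figure D3:**
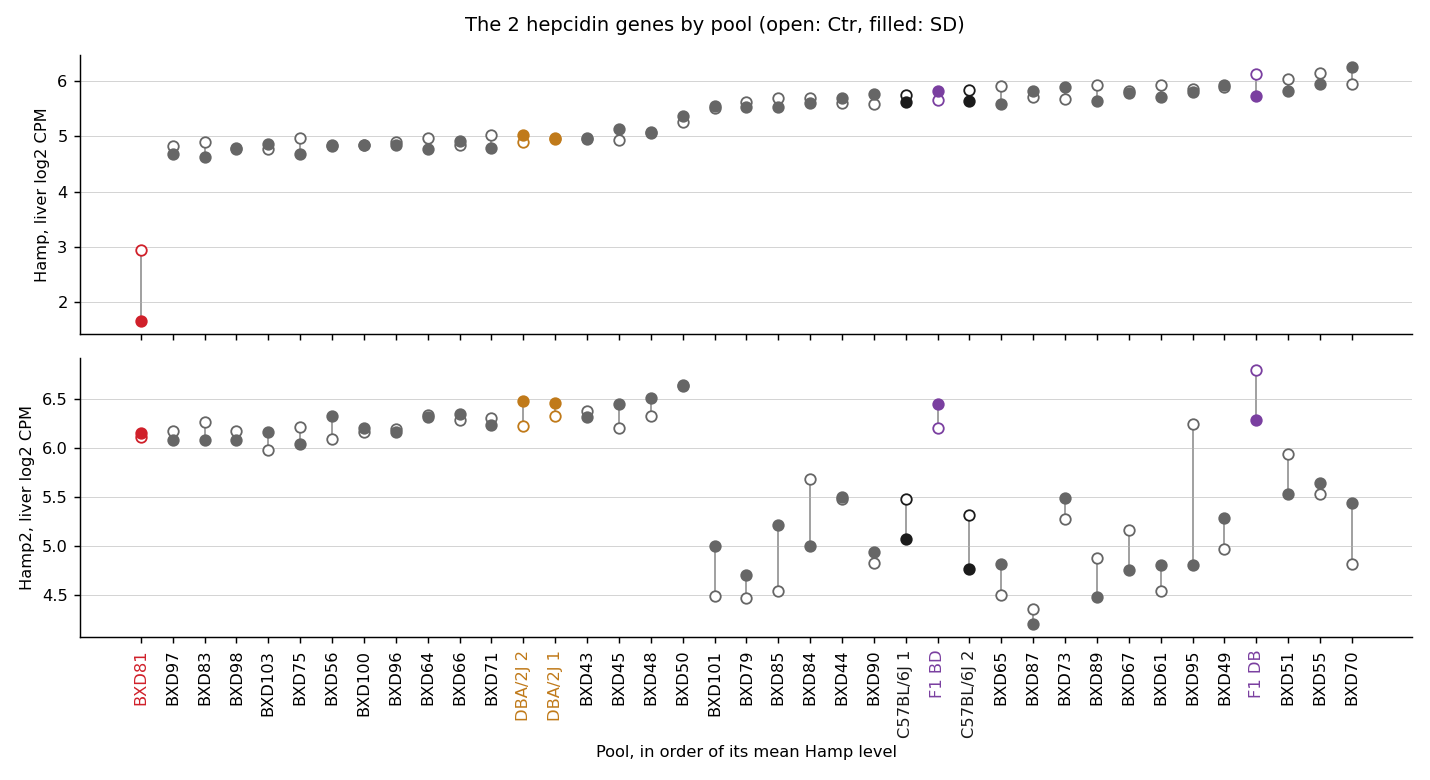
Liver levels of Hamp (top) and Hamp2 (bottom) in log2 CPM for each of 39 pools, ordered along the x axis by mean Hamp level, with open circles for Ctr and filled circles for SD. Hamp2 lies near 6 or above in all lines with low Hamp and mostly between 4 and 6 in the others, and BXD81 stands apart at the left.

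Within the sets read numbers spread little, except those of Hamp2 in the second set. The sets were cut on Hamp2 levels, which limits the spread within them. In the first set without BXD81 (30 libraries) Hamp2 held 486 to 557 reads and Hamp 168 to 233, although library totals differed 1.53-fold. The variance of the reads over their mean was 0.454 for Hamp2 and 1.12 for Hamp. Counting alone gives a ratio of 1 at equal library totals, and more where reads follow totals that differ, as they do here. The median over 9580 genes with a mean of at least 100 reads was 11.5. In the second set (34 libraries) Hamp held 330 to 399 reads with a ratio of 0.838, and Hamp2 117 to 492 reads with a ratio of 27.01. Hamp2 in the second set was thus the only one of these 4 cases with more spread than the typical gene.

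The remaining members were not divided into sets. Among them the widest liver range was that of Id1, 6.97-fold between BXD83 (2.604) and BXD81 (5.40). It was narrower than that of Hamp (13.9-fold) and wider than that of Hamp2 (5.10-fold). Tfrc followed, 4.52-fold between BXD81 (5.24) and BXD71 (7.42), then Bmp6, 3.51-fold between BXD43 (2.74) and BXD81 (4.55). BXD81 set an end of the ranges of Id1, Tfrc and Bmp6. The next line was BXD73 at 4.70 for Id1, BXD70 at 5.95 for Tfrc and BXD98 at 4.09 for Bmp6. In Hfe2, Tmprss6, Hfe and Slc40a1 the highest line mean in liver was 1.44, 1.41, 1.30 and 1.26 times the lowest. In cortex the ranges were 2.89-fold for Hfe2, 1.85 for Bmp6, 1.73 for Slc40a1, 1.64 for Hfe, 1.59 for Id1 and 1.47 for Tfrc. In liver Tfrc lay below both parents in 20 lines and above both in 9. The parental means there were close, 6.74 in C57BL/6J and 6.89 in DBA/2J, and their difference did not pass (limma, adjusted p = 0.587). In cortex Tfrc lay between the parental means, 7.28 and 7.02, in 23 lines. The 2 counts therefore refer to intervals of unlike width.

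A line's Ctr and SD pools come from different mice, and the correlation between them was tested over lines for 15 pairs of member and tissue (permutation test, 100000 draws). After adjustment 12 passed. In liver Pearson's r was 0.70 for Id1 (rho = 0.66, adjusted p = 0.000100), 0.58 for Bmp6 (rho = 0.48), 0.57 for Tfrc (rho = 0.58), 0.54 for Tmprss6 (rho = 0.50), 0.49 for Slc40a1 (rho = 0.56) and 0.47 for Hfe (rho = 0.52), with adjusted p of 0.00144 to 0.0106 from Bmp6 to Hfe. Hfe2 did not pass (r = 0.34, rho = 0.28, adjusted p = 0.0566). In cortex Slc40a1 (r = 0.49, rho = 0.36), Hfe2 (r = 0.42, rho = 0.48), Hfe (r = 0.40, rho = 0.41) and Tfrc (r = 0.39, rho = 0.39) passed, with adjusted p of 0.00675 to 0.0321, and Bmp6 and Id1 did not. Leaving out the 2 lines farthest from the median left r at 0.62 for Id1, 0.45 for Tfrc and 0.40 for Bmp6 in liver and at 0.23 for Tfrc in cortex, where without BXD81 the relation no longer passed (r = 0.30, adjusted p = 0.115). For the hepcidins no r over all lines is given, because the lines were split into 2 sets by hepcidin levels. The split used the mean of the Ctr and SD levels of Hamp2, and BXD81 was left out for its Hamp. The r and p within sets rest on values that made the sets, so they are a description. Within the first set without BXD81 r was 0.64 for Hamp (rho = 0.28, adjusted p = 0.0280) and 0.63 for Hamp2 (rho = 0.46, adjusted p = 0.0280), and without the 2 farthest lines 0.055 and 0.36. In residuals on the library total neither passed (adjusted p = 0.0946 for Hamp and 0.0701 for Hamp2). Within the second set it was 0.49 for Hamp (rho = 0.53, adjusted p = 0.0576) and 0.44 for Hamp2 (rho = 0.51, adjusted p = 0.0758).

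Hamp was set against the 8 other members over lines, in Ctr level and in SD minus Ctr change, within each set (32 relations, permutation test). The sets were cut on Hamp2 and matched the order of Hamp, so the p-values describe relations inside a split made from these levels. Over all 33 lines Hamp2 and Hamp had r = -0.60 in Ctr level, opposite in sign to their relation in the first set without BXD81. In the second set Tmprss6 tracked Hamp in Ctr level (r = 0.78, rho = 0.78, adjusted p = 0.00400) and in change (r = 0.80, rho = 0.77, adjusted p = 0.00320), with r = 0.77 and 0.75 without the 2 farthest lines. In the first set without BXD81, Hamp2 (r = 0.89, rho = 0.86, adjusted p = 0.000960), Tmprss6 (r = 0.88, rho = 0.76, adjusted p = 0.00160) and Hfe (r = 0.76, rho = 0.79, adjusted p = 0.00389) tracked Hamp in level, and Hamp2 (r = 0.79), Id1 (r = 0.73) and Tmprss6 (r = 0.64) in change, with adjusted p = 0.00389, 0.00987 and 0.0457. With BXD81 in the set none of these 6 passed by Pearson's r, while by rho Hamp2 (adjusted p = 0.000640), Hfe (0.00333) and Tmprss6 (0.00333) passed in level and Hamp2 in change (0.0151). After each value was replaced by its residual on the log2 library total, none of the 32 relations passed, and the smallest adjusted p was 0.107. In Tmprss6 of the second set r went from 0.78 to 0.27 in level and from 0.80 to -0.19 in change.

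**Figure D4:**
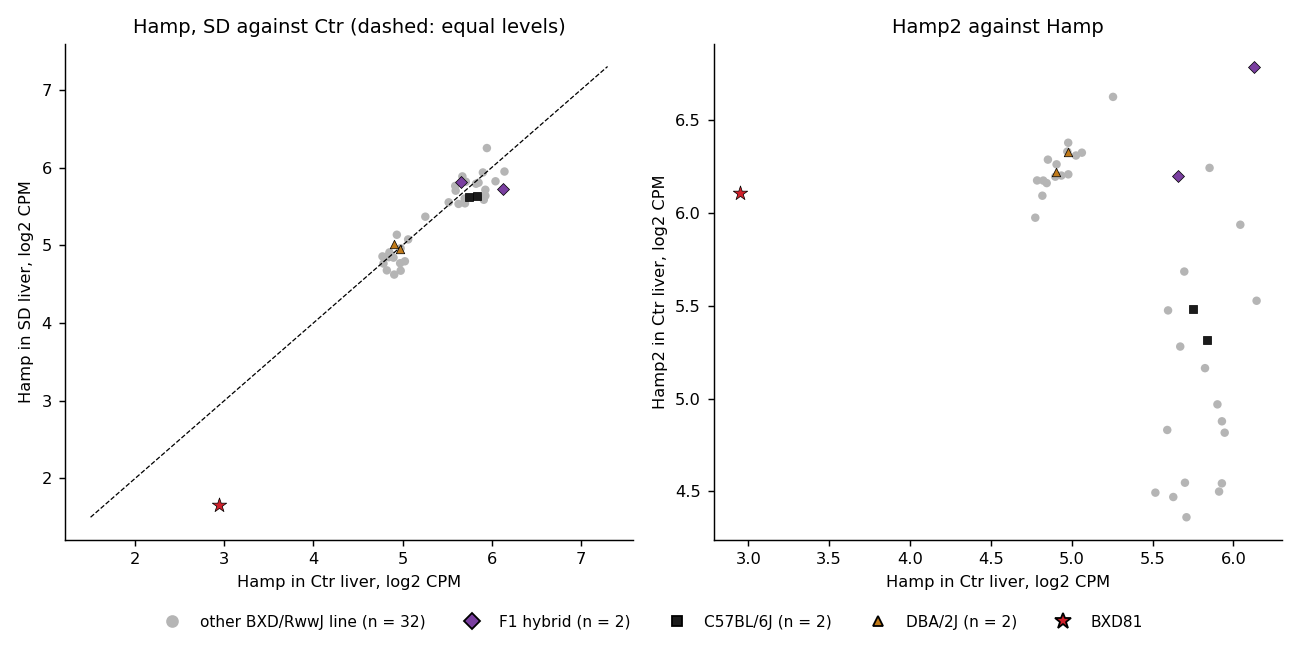
Left, Hamp in SD liver (y axis) against Ctr liver (x axis), log2 CPM, with a dashed line at equal levels. Right, Hamp2 (y axis) against Hamp (x axis) in Ctr liver. Each point is a pool. Apart from BXD81, lines with low Hamp and high Hamp2 lie around the DBA/2J triangles. Lines with higher Hamp and variable Hamp2 lie around the C57BL/6J squares.

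BXD81, singled out after its values were seen, had the lowest Hamp of the panel. Its liver Hamp was 2.95 log2 CPM in Ctr and 1.66 in SD (59 and 22 reads), where the lowest of the other 38 pools had 4.77 and 4.62, and its mean lay 9.64-fold below their median. Its Hamp2 was ordinary, at 6.11 and 6.15 (537 and 519 reads), rank 19 and 16 of 39 from the top. Its library totals were 7478167 and 7286211, rank 4 and 8, among the deeper libraries. The 2 libraries come from different mice.

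Of the other members, Bmp6, Id1 and Tfrc of BXD81 were outermost in both liver treatments. Bmp6 was the highest of 39 pools in both treatments, at 4.78 and 4.32 log2 CPM beside medians of 3.49 and 3.35 in the other pools. Id1 was also highest in both, at 5.30 and 5.51 beside 3.89 and 3.54, a 3.22-fold difference. Tfrc was lowest in both, at 5.58 and 4.90 beside 6.76 and 6.63, a 2.73-fold difference. In cortex Tfrc was again lowest in both treatments, at 7.15 and 6.53 beside 7.49 and 6.80, but only 1.23-fold below. Slc40a1, Hfe, Hfe2 and Tmprss6 of BXD81, like Hamp2, were not.

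Among the 73 other pathway genes listed in liver, BXD81 was highest in both treatments for 6 and lowest in both for 1. The 6 were the inhibitory SMADs Smad6 (1.74-fold above the median of the other pools) and Smad7 (2.89-fold), Smad9 (2.22-fold), Atoh8 (1.81-fold), a transcription factor that responds to BMP, the receptor gene Acvr2b (1.87-fold) and Hmox1 (1.81-fold), the heme oxygenase that releases iron from heme. The lowest was Slc11a2, the divalent metal transporter, 1.46-fold below. Over all liver genes BXD81 was outermost in both treatments for 123, or 0.872%, and the same count for the other pools ran from 4 to 284 with a median of 38.5. In cortex BXD81 was outermost for 100 genes, where the other pools had 6 to 196. By size, 37 of the 14107 liver genes of BXD81, Hamp among them, lay as far as Hamp from the panel median or farther. Each was taken by the smaller of its Ctr and SD deviations, both in the same direction.

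**Figure D5:**
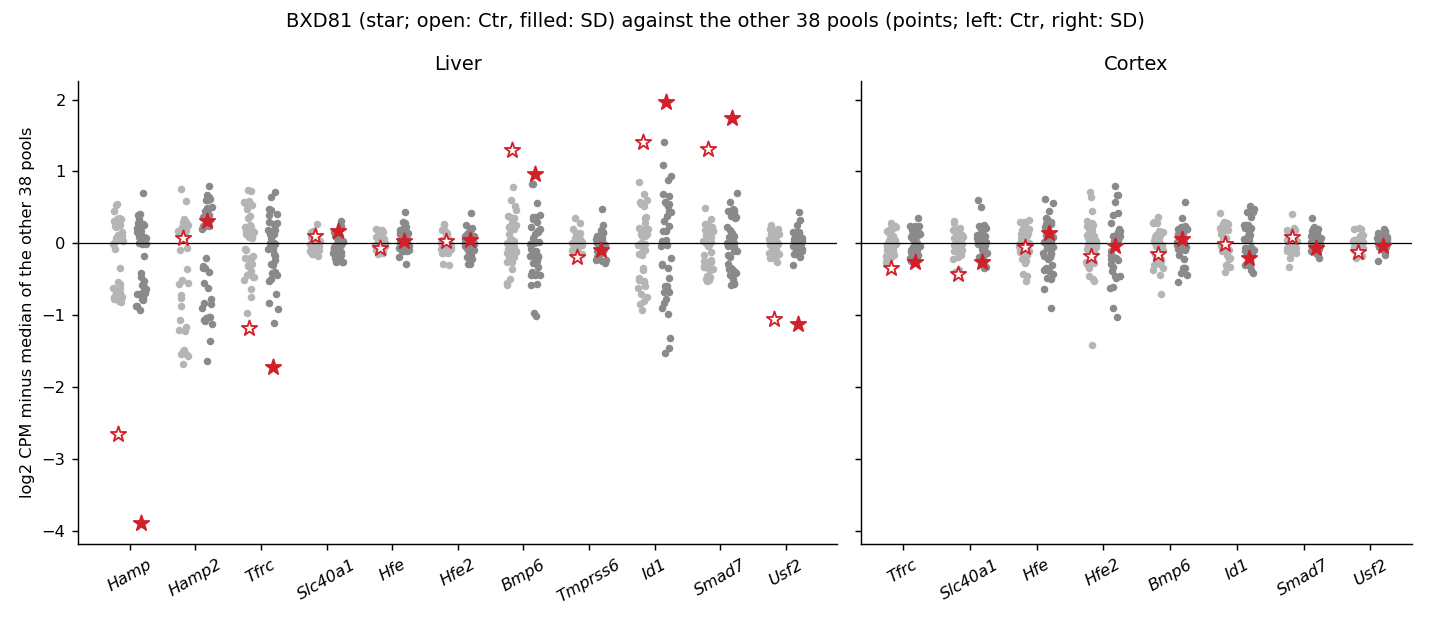
Level of each gene as log2 CPM minus the median of the other 38 pools (y axis), liver left and cortex right, with Ctr at the left and SD at the right of each gene. Stars are BXD81 and points the other pools. In liver BXD81 lies at the bottom for Hamp, Tfrc and Usf2 and at the top for Bmp6, Id1 and Smad7, and in cortex at the bottom for Tfrc.

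A neighbour of Hamp shared the low level. Usf2, which encodes a basic helix-loop-helix transcription factor and lies 1.23 kb from Hamp at chr7:31730271-31741822, was the lowest of 39 pools in both BXD81 liver libraries, at 5.70 and 5.61 where no other pool was below 6.49 and 6.42, 2.12-fold under their median. In cortex its Usf2 held rank 36 and 30 of 39. Hamp2, on the other side of Hamp, and Lsr, 13.4 kb away beyond Usf2, were within the range of the other pools in liver. Usf2 was chosen here because its level was the most like that of Hamp over the Ctr libraries of the 33 lines.

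The genes whose Ctr level was most like that of a member were looked up over the same 33 lines, with no test. For liver Hamp they were Usf2 (r = 0.81), Cyp3a11 (0.73) and Cab39l (0.69), which fell to 0.61, 0.39 and 0.29 without BXD81. The most unlike were Ubash3b (-0.65), Polr3d (-0.64) and Hivep2 (-0.64). For liver Id1 they were Smad7 (0.81), Id4 (0.71) and Bambi (0.69), at 0.74, 0.58 and 0.64 without BXD81, and the most unlike were Nln (-0.65), Ap1g1 (-0.64) and Tfrc (-0.64). For liver Tfrc the most like were Srpk1 (0.72), Pdlim5 (0.67) and Dopey2 (0.67) and the most unlike Hdac5 (-0.67), Cirbp (-0.66) and Id1 (-0.64). In cortex Tfrc was most like Slc44a1 (0.66), Chrnb3 (0.62) and Tmem184c (0.61), and Id1 most like Nat9 (0.71), Slmo2 (0.71) and Oaf (0.70). The libraries share depth and normalisation, so these values are a description.

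The wider iron pathway was described with 81 further genes in 7 lists, of which 69 were listed in cortex and 73 in liver. After SD 28 rose and 21 fell in cortex (71.0% passed, beside 76.3% of all genes), and 24 rose and 17 fell in liver (56.2%, beside 53.9%). Their median absolute change was 0.12 in cortex and 0.098 in liver, beside 0.13 and 0.12 over all genes. The share that passed was close to the background in each tissue.

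Of 23 genes of BMP and SMAD signalling, 8 rose and 8 fell in cortex. Fam132b, which encodes erythroferrone, a hormone that lowers hepcidin, fell by 0.88 (36 of 39 lines, adjusted p = 3.92e-13), Tfr2, the second transferrin receptor, fell by 0.60 in all 39 lines (adjusted p = 1.65e-23), and Atoh8 rose by 0.54 (35 lines, adjusted p = 8.58e-09). In liver 7 rose and 6 fell of 21 listed. Id3, a relative of Id1, fell by 0.34 (35 lines, adjusted p = 5.43e-10), Bmp4 by 0.29 (31 lines, adjusted p = 5.87e-05) and Smad1 by 0.25 (37 lines, adjusted p = 1.69e-12). Between the parents, Smad9 (-0.59, adjusted p = 0.000896) and Id3 (-0.46, adjusted p = 0.00979) were lower in DBA/2J liver, and the Id3 call was lost under 5 of 12 alternatives, with a difference of -0.26 (adjusted p = 0.134) without DBA/2J pool 1.

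The interleukin-6 and STAT3 arm, which switches hepcidin on in inflammation, rose or did not pass. Of 10 genes listed in liver 8 rose and the other 2 did not pass, with a median of 0.14 beside -0.0015 over all genes, of which 3672 of 14107 rose and 53.9% passed in either direction. Il6ra, the interleukin-6 receptor, rose by 0.65 (36 of 39 lines, adjusted p = 1.76e-11), Saa2, an acute-phase protein, by 0.30 (25 lines, adjusted p = 0.0117, lost over the BXD/RwwJ lines alone at 0.121) and Il6st, the shared receptor chain, by 0.23 (36 lines, adjusted p = 3.89e-06). Il6 itself was not listed in either tissue. In cortex 3 of 6 rose, beside 36.6% of all genes, and the other 3 did not pass, with Jak2 at 0.48 in all 39 lines (adjusted p = 2.88e-26).

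Of 9 iron uptake genes in liver, 4 rose and 3 fell. Scara5, a receptor that takes up ferritin, had 1.98, 5.41 and 6.16 log2 CPM in Ctr and 4.95, 6.69 and 7.44 after SD, and rose in all 39 lines by 1.39 (adjusted p = 5.22e-17), the largest change of any pathway gene. Lcn2, which binds iron-carrying siderophores, rose by 0.63 (28 lines, adjusted p = 0.00135) and the metalloreductase Steap4 by 0.45 (39 lines, adjusted p = 1.78e-17). In cortex 3 of 8 rose and 3 fell, with Slc39a8 at -0.46 (38 lines lower, adjusted p = 5.62e-12) and Slc11a2 at -0.19 (39 lines lower, adjusted p = 2.22e-19). Storage and ferroxidase genes changed by small amounts. In cortex 4 of 7 rose, Heph the most (0.26, adjusted p = 1.55e-06), and in liver 2 of 7, Ncoa4, the ferritin-autophagy receptor (0.14, adjusted p = 3.29e-06), and Cp (0.052, adjusted p = 0.0275), whose call was lost without DBA/2J pool 2 (adjusted p = 0.0515) and without the line as a block (0.116).

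Of the 4 genes of iron regulatory proteins and their control, Aco1, the iron regulatory protein that doubles as aconitase, fell in all 39 cortices (-0.18, adjusted p = 4.88e-17), while Ireb2 rose there (0.09, 31 lines, adjusted p = 1.65e-06). In liver Fbxl5, which marks Ireb2 protein for degradation, fell (-0.11, 36 lines, adjusted p = 4.26e-07) and Epas1, a hypoxia-inducible factor, rose (0.17, 37 lines, adjusted p = 2.32e-06). Epas1 also rose in cortex (0.21, 37 lines, adjusted p = 3.93e-12). In the list of heme handling, Cd163, the haemoglobin scavenger receptor of macrophages, rose in both tissues, by 0.68 in cortex (38 lines, adjusted p = 5.33e-12) and 0.58 in liver (34 lines, adjusted p = 2.15e-08), and it was higher in DBA/2J in both (0.74 and 0.76, adjusted p = 0.0186 and 0.00268), calls lost under 4 of 12 alternatives in cortex and 3 of 12 in liver. Without DBA/2J pool 1 the cortex difference was 0.49 (adjusted p = 0.249), and without DBA/2J pool 2 that of Cd163 in liver was 0.46. Kupffer cell markers, of which Cd163 is not one here, gave 3 up and 2 down of 8 in liver. Of 10 genes of mitochondrial iron, 5 fell in liver and the other 5 did not pass. Over all liver genes 27.9% fell and 53.9% passed in either direction. The largest fall in the list was that of the iron importer Slc25a37 (-0.39, all 39 lines, adjusted p = 4.03e-16). In cortex 4 rose and 4 fell, and Abcb8 was higher in DBA/2J by 1.07 (adjusted p = 7.24e-10).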

How the data were processed

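Per the labels and the study's methods, the authors sequenced pooled RNA from stranded mRNA libraries as single-end 100-base reads, aligned it with STAR to mm9, counted reads per RefSeq gene with HTSeq, removed genes with a low mean count, and deposited log2 CPM normalised by TMM with edgeR. No removal of duplicate reads is named, and tool versions are not given in the sources used here. From the deposited log2 CPM, reads per gene were recovered (100% whole within 0.02), which gave library totals. Read-based values cover counting error only.

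Tests across genes used limma 3.58.1 in R 4.3.3 on the log2 CPM with a variance trend and Benjamini-Hochberg adjustment over all genes of a tissue (threshold 0.05). No pseudocount was added. The SD response had the line as a block, the parental comparison had treatment as a term, and lines were compared by a moderated F test. Ctr and SD pools of a line deviated together (lowest r 0.299 in cortex and 0.169 in liver), and 37 of 39 pools in each tissue correlated best with their own line. Correlations used 100000 permutations, two-sided. The fits were tested on simulated data. p-values measure the spread between pools.

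For SD and strain, genes named from the pathway lists were drawn, per list and tissue, from up to 3 with the largest SD change and up to 2 with the largest parental difference among those past the threshold. Only some of the genes that met this rule are named, so a gene not named may also have passed. Steap2 (-0.82) and Scara5 (0.64), DBA/2J minus C57BL/6J in liver, were among those left out. The members and all lists were chosen with earlier results of these data known. The library total as a covariate, residuals on it, leaving out BXD81 in the line comparisons, and the relations within the 2 sets of lines were added after seeing the data. The coding sequences of the hepcidin genes are not reported here.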

Additional observations from a re-analysis of the deposited data

Results flagged for a closer look

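The SD response of 4 members differed between the tissues by a test of the difference itself (limma, 39 pairs). Liver minus cortex was 0.99 on the log2 scale for Hfe2, 0.49 for Tfrc, 0.42 for Slc40a1 and -0.70 for Id1.

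The SD response of 3 members in liver differed between the parental strains by the interaction term (limma). The response of DBA/2J minus that of C57BL/6J was 0.67 for Hamp2, 0.35 for Slc40a1 and 0.37 for Tmprss6. Library totals differed along the same contrast, and with the total as a covariate none of the 3 passed.

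Among the 4 BXD/TyJ pools, which enter no main comparison, a single pool stood far from the other 3 in 2 of 45 groups of values examined by Dixon's ratio of gap to range. The ratio was 0.895 for Id1 in SD cortex, with BXD05 apart, and 0.845 for Tmprss6 in SD liver, with BXD29t apart, both passed the critical value for 4 pools. Chance gives such a ratio in about 1 of 20 groups.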

How the results depend on the processing

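Over 97 results on the members and 1234 alternatives, 1146 kept direction and side of the threshold, 36 lost the call, 17 gained one and 35 changed sign. Depth limits Hfe2 and Hfe in cortex and Bmp6 and Id1 in liver, which held few reads.

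Genes called between the parental strains in cortex went from 3804 to 2344 in Ctr libraries alone, 1798 in SD libraries alone, 2396 with the library total as a covariate and 2398 to 3417 without 1 pool. In liver they went from 2524 to 1583 in Ctr libraries alone, 3420 in SD libraries alone, 1486 with the covariate and 1433 to 1767 without 1 pool. The strain by SD interaction gave 1 gene in cortex and 6 with the pool pair as a replicate block. In liver it gave 1014, 1612 after median-centring, 0 with the covariate (limma, 893 at an unadjusted p under 0.05) and 1340 with the block, under which Tfrc also passed (adjusted p = 0.0484). Without the line as a block, the SD response had 10191 calls in place of 11359 (cortex) and 6229 in place of 7603 (liver). The parental numbers did not pair the samples (r of -0.015 to 0.14), and as a block they gave 4447 calls in cortex and 2356 in liver.

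Signs changed mostly for uncalled differences, the liver interaction of Tmprss6 (0.37, adjusted p = 0.0191) being a called one. Between the parents, Hfe2 in cortex (0.040) was -0.13 in Ctr libraries alone and -0.070 to 0.15 without 1 pool. In liver Hfe2 (0.0035) was -0.057 in Ctr libraries alone and with the covariate and -0.031 to 0.038 without 1 pool, Hfe (-0.026) was 0.0098 after median-centring, Tfrc (0.15) was -0.26 in SD libraries alone and -0.045 to 0.34 without 1 pool, and Bmp6 (-0.20) ran from -0.52 to 0.11 without 1 pool. The liver SD response of Hamp2 (-0.017) was 0.0052 over the BXD/RwwJ lines alone and -0.035 to 0.020 without 1 line. With the covariate the liver interaction turned to 2.80 for Bmp6, -0.25 for Hamp, -0.11 for Hfe2, 1.84 for Id1 and -0.062 for Tmprss6. The tissue difference of Hfe was -0.0082 on log2(CPM + 1). The cause was not tested.

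Over all 33 lines, 2 of 16 relations of Hamp with the other members passed, 6 without the 2 lines farthest in Hamp, 7 without BXD81 and 1 in residuals on the library total. In Ctr level, r turned to -0.20 and -0.21 for Tfrc, 0.0068 and 0.037 for Hfe2 and 0.48 and 0.41 for Id1 without the 2 farthest lines and without BXD81, to 0.060 for Bmp6 without the 2 farthest and to 0.16 for Hfe2 after median-centring. In change it turned to -0.042 and -0.15 for Tfrc without the 2 farthest and without BXD81, to -0.068 for Bmp6 without BXD81, and in residuals to -0.023 for Hamp2, -0.13 for Slc40a1, -0.086 for Hfe, -0.33 for Tmprss6 and -0.019 for Id1.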

Other observations

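Fam187b, 29.8 kb from Hamp on the opposite strand and chosen after its values were seen, had r = 0.43 with Hamp over the Ctr livers of 33 lines and 0.87 without BXD81, in which Fam187b was at 4.10 log2 CPM in Ctr, the highest of 39 pools, and at 3.47 in SD, rank 18. The summed level of Hamp and Hamp2 in Ctr liver had a median of 6.71 log2 CPM in the 16 lines with the higher Hamp2 and 6.49 in the 17 others, beside 6.61 in C57BL/6J, 6.76 in DBA/2J and 7.23 in the F1 pools (6.95 and 7.50, the higher in DB, the shallowest Ctr liver library). These values are a description, with no test.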
